A study of Mus musculus with 6 samples.

Results

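The miR-29 family comprises the microRNAs miR-29a, miR-29b and miR-29c, which share a seed and are cut from 4 hairpins, since miR-29b has 2 gene copies. Its reads were taken as all reads of 18 to 26 nt found on the sense strand and without mismatch in these hairpins of the GENCODE M21 annotation, and each read was given to the 5p or the 3p arm by the side of the hairpin on which its midpoint lay. The family held 4 of 1174 named hairpins, 7 of 1421 arms with a read (the 3p arms of both miR-29b hairpins have the same sequence and count as 1 arm) and 333 of 19995 distinct reads. Small RNA had been sequenced from the sensorimotor cortex of adult male C57BL/6J mice aged 90 days after birth, 7 days after surgery. For the 3 SCI libraries the cervical spinal cord had been cut through completely, and for the 3 control libraries the cord had been laid bare and left intact. The cortex holds neurons whose axons run to the cord, so the comparison bears on miRNAs far from the lesion. The labels give 1 library per sample, with samples collected singly, and no batch. Libraries held 14628518 to 23408028 reads in SCI and 10585062 to 24480988 reads in control, of which 72.9% to 78.9% fell in miRNA arms.

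MicroRNAs guide Argonaute proteins to messenger RNAs that pair with the seed, the bases from position 2 to position 8 of the small RNA, and thereby lower the output of those messages. miR-29 is known for targeting messages of collagens and other matrix proteins, of DNA methyltransferases and, in neurons of the mouse, of pro-apoptotic BH3-only proteins. Its level is known to climb steeply as the cortex matures, and both neurons and astrocytes carry it. The 3′ part of the molecule also matters: a hexamer at the 3′ end of miR-29b was found in human cells to favour import into the nucleus, and in the mouse cerebellum the Nrep transcript was found to trigger decay of miR-29b, a process that goes with trimming and tailing of 3′ ends. For this reason the ends of the reads are described below as well as their levels.

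Mir29a and Mir29b-1 lie 275 bases apart on the minus strand of chromosome 6 (GRCm38), at chr6:31062660-31062747 and chr6:31063023-31063093. Mir29b-2 and Mir29c lie 426 bases apart on the plus strand of chromosome 1, at chr1:195037040-195037120 and chr1:195037547-195037634. GENCODE places both chromosome 1 hairpins inside an exon of 1 transcript of the noncoding gene A330023F24Rik on the same strand, and inside an exon of 1 transcript of the protein-coding gene Cd46 on the opposite strand. On chromosome 6 an exon of the lincRNA Gm27019 touches the edge of Mir29b-1. Reads were matched on the sense strand of the hairpins, so antisense Cd46 reads were not counted.

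The mature sequences of the RefSeq annotation (GRCm38.p6) are shown because the members differ by few bases and the results turn on where reads begin and end. Capitals mark the seed.
miR-29a-3p: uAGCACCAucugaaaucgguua
miR-29b-3p: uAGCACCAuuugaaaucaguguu
miR-29c-3p: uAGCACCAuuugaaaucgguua
miR-29a-5p: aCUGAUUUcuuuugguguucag
miR-29b-1-5p: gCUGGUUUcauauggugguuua
miR-29b-2-5p: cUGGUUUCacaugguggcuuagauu
miR-29c-5p: uGACCGAUuucuccugguguuc

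The seed AGCACCA occurred in 3 of 1679 mature mouse sequences in RefSeq, all of them miR-29 3p arms. Counted from the 5′ end, miR-29a-3p and miR-29c-3p were identical at 21 of 22 positions and differed by C10U. Between miR-29a-3p and miR-29b-3p 18 of 22 positions were identical, with the changes C10U, G18A, U21G and A22U. Between miR-29b-3p and miR-29c-3p 19 of 22 were identical, with A18G, G21U and U22A. At their RefSeq starts the 5p arms carry other seeds, and none of the 4 shares its seed with another arm of the family. Reads of miR-29b-2-5p that began 1 base early, 7.22% to 10.1% of that arm, have the seed of miR-29b-1-5p.

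A single base thus separates miR-29a-3p from miR-29c-3p, and misread bases were measured as a background. Reads of miR-29a-3p with C10A made up 0.00418% to 0.00745% of the unchanged reads and those with C10G 0.0012% to 0.00251%, over the 6 libraries. Reads with C10U, which are the sequence of miR-29c-3p, made up 10.97% to 16.99%. For miR-29b-3p, reads with U10C, a change that yields no other member, made up 0.0144% to 0.0196%. Reads of miR-29c-3p with G18C or G18U stood at 0.00209% to 0.03% of the unchanged reads, against 4.42% to 9.82% for G18A, which at this length is the start of miR-29b-3p. For miR-29a-3p and miR-29c-3p, the base that names another member was thus far more frequent in every library than the other changes at the same position.

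By its mean level over the 6 libraries, miR-29a-3p was the most abundant miRNA arm, rank 1 of 690 arms tested, though not in every library. The whole family made up 11.2%, 10.8% and 10.02% of miRNA reads in SCI 1, 2 and 3 and 14.7%, 10.51% and 11.03% in control 1, 2 and 3. Control 1 stood above all other libraries, and the other 5 lay within 10.02% to 11.2%. In a bulk sample, fewer cells of a type and less RNA per cell cannot be told apart. Levels below are CPM, read counts scaled to the total in miRNA arms and by TMM, and changes are log2 of SCI over control ± SE from edgeR, fitted over all arms. In SCI 2, SCI 3 and control 2, miR-26a-5p stood above miR-29a-3p, at 77536, 73481 and 83913 CPM. In SCI 3 miR-128-3p did so too, at 71480 CPM.

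miR-29a-3p stood at 81665, 75359 and 68498 CPM in SCI and 115970, 83870 and 80379 CPM in control. The SCI mean was 75174 ± 6585 and the control mean 93406 ± 19618 (SD, n = 3 each). SCI 1 lay above control 3, so the groups overlapped, and the change of -0.31 ± 0.15 did not pass (edgeR quasi-likelihood test, adjusted p = 0.388). Without control 1 it was -0.13.

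miR-29b-3p, which ranked at 16 of 690, stood at 15855, 18318 and 14616 CPM in SCI and 23116, 14544 and 20443 CPM in control. Control 2 was the lowest of all 6 libraries, and the change was -0.25 ± 0.17 (edgeR, adjusted p = 0.537). miR-29c-3p, which ranked at 21 of 690, stood at 11966, 10134 and 9579 CPM in SCI and 18410, 9502 and 10150 CPM in control. Only control 1 lay apart, the change was -0.26 ± 0.24 (edgeR, adjusted p = 0.635), and without control 1 its sign turned, to 0.10.

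The 5p arms, which are mostly discarded when the duplex is loaded into Argonaute, were much rarer. miR-29a-5p stood at 384, 329 and 365 CPM in SCI and 418, 255 and 301 CPM in control, a change of 0.14 ± 0.19. miR-29c-5p stood at 347, 308 and 313 CPM in SCI and 399, 297 and 310 CPM in control, a change of -0.06 ± 0.15. The groups overlapped for both.

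miR-29b-2-5p stood at 131, 120 and 124 CPM in SCI and 129, 130 and 111 CPM in control, a change of 0.02 ± 0.14. miR-29b-1-5p, the rarest arm, stood at 29.6, 18.1 and 27.1 CPM in SCI and 17.8, 27.4 and 16.9 CPM in control, a change of 0.28 ± 0.26. Here too the values of the groups were interleaved.

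**Figure D1:**
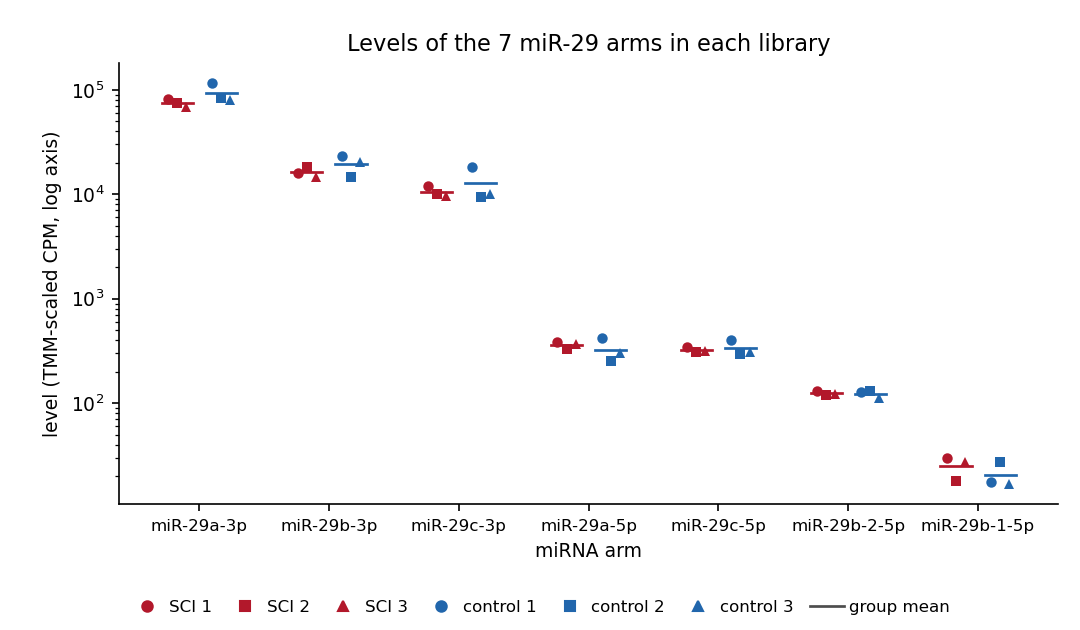
TMM-scaled CPM (log axis) of the 7 miR-29 arms in each of the 3 SCI and 3 control libraries, with group means as bars. The 3p arms lie far above the 5p arms, and the points of the groups overlap for every arm, with control 1 highest for the 3p arms.

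None of the 7 arms passed, and none had groups that lay apart. Over all 690 arms edgeR called 0 (0.0%), with 97 at an unadjusted p under 0.05, limma-voom called 0 and DESeq2 called 12, none of them of this family. Groups lay apart for 20% of the arms. Across the alternative scalings, filters, tests and left-out libraries, the adjusted p of miR-29a-3p ranged from 0.24 to 0.864.

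The order of the 3p arms was the same in all 6 libraries: miR-29a-3p made up 72.4% to 77.7% of their sum, miR-29b-3p 13.5% to 18.4% and miR-29c-3p 8.8% to 11.7%. The log2 ratio of miR-29a-3p to miR-29b-3p was 2.21 ± 0.16 in SCI and 2.28 ± 0.28 in control, a difference of -0.07. The ratio of miR-29a-3p to miR-29c-3p was 2.84 ± 0.06 in SCI and 2.93 ± 0.25 in control, a difference of -0.09. The ratio of miR-29b-3p to miR-29c-3p was 0.62 ± 0.22 in SCI and 0.65 ± 0.34 in control, a difference of -0.03 (SD, n = 3 each). Each difference was smaller than the SD of the control libraries, with two-sided exact permutation p of 0.8, 0.6 and 0.9 (0.9 for each after adjustment over the 3 ratios, where 3 libraries against 3 allow no p below 0.1).

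Which hairpin the miR-29b-3p reads came from was visible only at the edges, because nearly all of them are found in both copies. Reads found in 1 hairpin alone made up 0.486%, 0.502% and 0.496% of the arm in SCI and 0.964%, 0.49% and 0.464% in control. The hairpins are shown because their 5p arms and the base after the 3p arm differ, and capitals mark both mature arms.
Mir29b-1: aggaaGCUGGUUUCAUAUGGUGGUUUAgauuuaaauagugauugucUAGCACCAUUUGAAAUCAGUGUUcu
Mir29b-2: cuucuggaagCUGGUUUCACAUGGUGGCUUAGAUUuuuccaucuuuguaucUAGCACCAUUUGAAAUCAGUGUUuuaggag

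The 5p arms gave 4.43, 6.64 and 4.56 reads of Mir29b-2 for each read of Mir29b-1 in SCI, and 7.25, 4.73 and 6.59 in control. The 24-nt 3p reads that extend into the differing base gave ratios of Mir29b-2 over Mir29b-1 of 4.69, 4.35 and 4.5 in SCI and 14.0, 5.60 and 4.76 in control. The chromosome 1 copy thus gave more reads than the chromosome 6 copy by both measures in each of the 6 libraries. A 24-nt read of Mir29b-2 cannot be told apart from a shared read with 1 added U, and control 1 again stood apart.

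The ratio of 3p to 5p reads of a hairpin does not depend on library scaling. For miR-29a it was 213, 229 and 188 in SCI and 277, 328 and 267 in control, so every SCI library lay below every control library. On the log2 scale the values were 7.73, 7.84 and 7.55 in SCI and 8.11, 8.36 and 8.06 in control, a difference of -0.47 ± 0.18 that did not pass (limma, unadjusted p = 0.0315, adjusted p = 0.388) and was -0.50 without control 1. For miR-29c the ratio was 34.5, 33.0 and 30.6 in SCI and 46.1, 32.0 and 32.7 in control (limma, -0.16 ± 0.20, adjusted p = 0.747). For miR-29b, with both 5p arms summed, it was 98.7, 132 and 97.0 in SCI and 157, 92.6 and 160 in control (-0.29 ± 0.27, adjusted p = 0.662). Over all 246 hairpins limma called 0 (0.0%), with 28 at an unadjusted p under 0.05. Of the 3 miR-29 ratios, 1 had groups apart and lower in SCI, as had 11.8% of all hairpins.

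**Figure D2:**
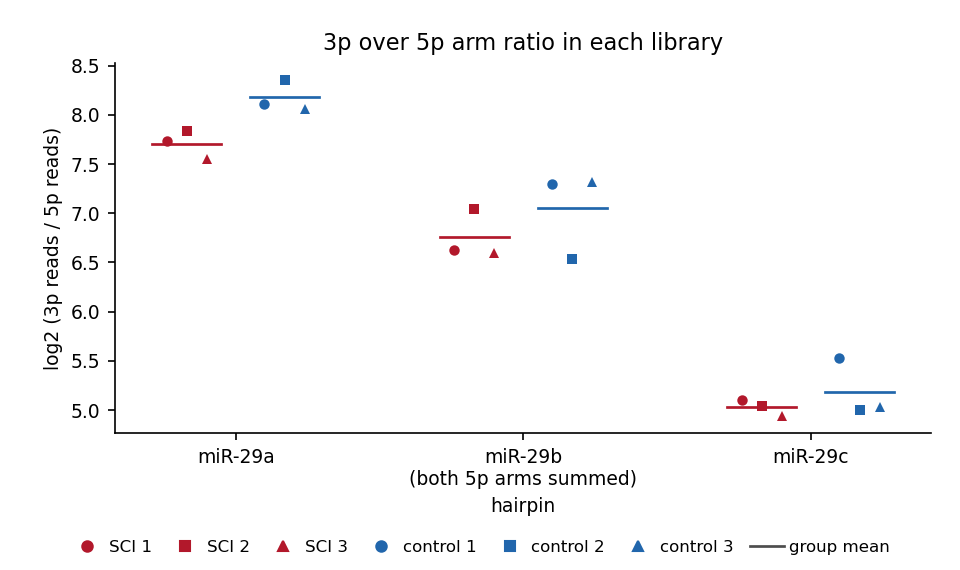
Log2 of 3p reads over 5p reads for miR-29a, miR-29b and miR-29c in each of the 3 SCI and 3 control libraries, with group means as bars. For miR-29a the SCI libraries lie at 7.55 to 7.84 and the control libraries at 8.06 to 8.36, whereas the groups overlap for the other hairpins.

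The 3p arms differed in where their molecules end. The most abundant read of miR-29a-3p ended 1 base before the RefSeq end: reads with this end made up 48.7%, 48.4% and 47.1% of the arm in SCI and 53.8%, 48.9% and 49.4% in control, and reads with the RefSeq end 33.8%, 32.7% and 35.2% in SCI and 37.4%, 32.0% and 31.4% in control. miR-29c-3p had 43.1% to 45.4% at the shorter end, and at the RefSeq end 33.8%, 31.0% and 34.3% in SCI and 45.3%, 29.9% and 29.1% in control. In control 1 its shares at both ends were thus nearly equal, and in the other 5 libraries the shorter end led. In miR-29b-3p, by contrast, the full end with the hexamer AGUGUU prevailed, at 73.9%, 76.9% and 75.8% in SCI and 81.2%, 75.5% and 78.3% in control. A share of the reads of a 3p arm in 1 library carries a 95% Wilson interval at most 0.239 percentage points wide for miR-29a-3p, 0.573 for miR-29b-3p and 0.709 for miR-29c-3p, which covers counting error only.

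The end 1 base short of the full one held 14.8%, 12.02% and 13.6% of miR-29b-3p in SCI and 11.8%, 10.9% and 10.99% in control, so every SCI library lay above every control library. The shorter end of miR-29a-3p, by contrast, was lower in every SCI library. Both ends were picked after their values were seen. The trimmed ratios of both arms, described next, overlapped between the groups. Over all arms that ratio, which is another measure than the share at a single end, lay apart and higher in SCI in 12.6% and lower in 4.4%. The share at a single end was not computed over all arms. For the earlier ends control 1 stood apart. Reads of miR-29a-3p that ended 2 bases early made up 13.1%, 14.4% and 13.4% in SCI and 5.89%, 14.5% and 14.6% in control. Those of miR-29c-3p made up 16.0%, 19.9% and 16.7% in SCI and 5.75%, 20.4% and 20.9% in control. Control 1 was low for both, and the other 5 libraries lay close together. Control 1 had fewer trimmed reads in general: over 523 arms its median log2 ratio of trimmed to untrimmed reads lay 0.28 below the arm's mean (-0.28), against 0.02 to 0.12 in the other 5 libraries.

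The log2 ratio of reads that end before the most abundant 3′ end to all other reads differed by 0.35 ± 0.39 in miR-29a-3p, 0.25 ± 0.18 in miR-29b-3p and 0.40 ± 0.57 in miR-29c-3p between SCI and control (limma, adjusted p of 0.744, 0.7 and 0.803). Without control 1 it was -0.12 in miR-29a-3p and -0.32 in miR-29c-3p, so both signs turned. The part of that library in the ends was otherwise not tested.

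**Figure D3:**
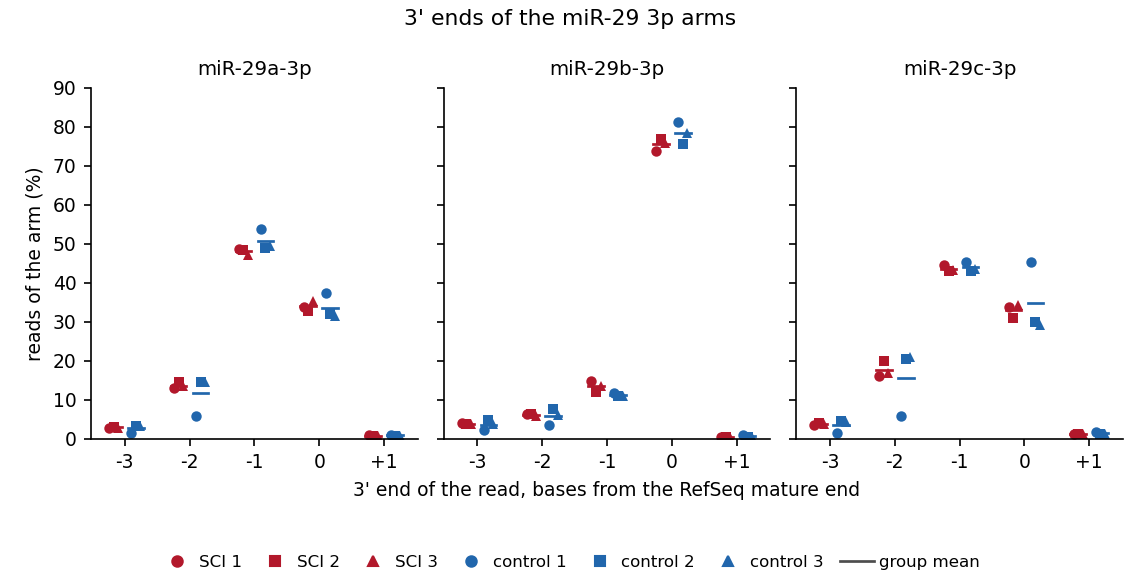
Share of the reads of miR-29a-3p, miR-29b-3p and miR-29c-3p by 3′ end, in bases from the RefSeq mature end, in each of the 3 SCI and 3 control libraries, with group means as bars. miR-29b-3p is mostly full length, the other arms peak 1 base short (in control 1 miR-29c-3p is nearly level, at 45.4% and 45.3%), and control 1 lies low at the end 2 bases short.

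The 5p arm of Mir29b-1 had the smallest p among the 3′ ends of the family. Its most abundant end lay 2 bases beyond the RefSeq end and held 50.3%, 55.3% and 57.0% of the arm in SCI and 46.6%, 41.8% and 44.4% in control. The groups lay apart, and the log2 ratio of shorter to other ends was -0.63 ± 0.16, unadjusted p = 0.0059, which did not pass over all arms (limma, adjusted p = 0.41). This arm had only 220 to 423 reads per library, so a share has a 95% Wilson interval up to 13.1 percentage points wide. Of the 7 family arms tested, 1 had groups apart and lower in SCI, against 4.4% of the 523 arms, where limma called 0 (0.0%), with 41 at an unadjusted p under 0.05.

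Some reads carried 1 to 3 further bases that are not in the hairpin. Such tailed reads made up 4.48%, 4.32% and 4.15% of miR-29a-3p in SCI and 4.72%, 4.19% and 4.01% in control. For miR-29c-3p they made up 5.07% to 5.43% in SCI and 5.03% to 6.71% in control, and for miR-29b-3p 1.92% to 2.27% in SCI and 1.61% to 2.49% in control. Single or repeated A was the most frequent addition to all 3, at 41.0% to 47.2% of the added reads of miR-29a-3p, 53.0% to 55.8% of miR-29c-3p and 67.3% to 74.7% of miR-29b-3p. An added U was counted on 35.5% to 40.5% of the added reads of miR-29a-3p and on 2.19% to 5.11% of those of miR-29b-3p. A U after the end of miR-29b-3p also matches Mir29b-2, so it is counted as template there. Likewise, a U after the RefSeq end of miR-29a-3p or miR-29c-3p matches the hairpin, and so does an A after their end 1 base short. Such bases are counted as template too, so the shares of A and U are not strictly comparable between the arms.

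Additions were more frequent in 2 of the 5p arms. In miR-29b-2-5p they made up 12.7% to 15.5% in SCI and 12.2% to 14.4% in control, most of them U (65.5% to 75.0% of the added reads over the 6 libraries). In miR-29c-5p they made up 11.6%, 11.6% and 13.1% in SCI and 11.5%, 10.7% and 10.8% in control, so the groups lay narrowly apart, with a log2 ratio difference of 0.15 ± 0.11 (limma, adjusted p = 0.636). Over 509 arms limma called 0 (0.0%), with 34 at an unadjusted p under 0.05. Groups lay apart and higher in SCI in 1 of 7 family arms and in 14.7% of all arms.

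The 5′ start sets the seed, and most reads of the 3p arms began at the RefSeq start: 91.8% to 92.2% for miR-29a-3p, 94.6% to 96.1% for miR-29b-3p and 98.9% to 99.0% for miR-29c-3p. Reads that began 1 base earlier made up 7.2% to 7.59% of miR-29a-3p, 1.90% to 2.85% of miR-29b-3p and 0.316% to 0.369% of miR-29c-3p. Their seed, UAGCACC, was that of 0 of 1679 mature mouse sequences in RefSeq. The start of miR-29c-5p was much less fixed, with 37.8% to 44.1% of reads at the RefSeq start, 24.8% to 30.2% 1 base later and 27.9% to 33.2% 2 bases later. Its most abundant single read in 5 of 6 libraries began 2 bases late (in control 1 it had 1305 counts, against 1332 for the top read at the RefSeq start) and is shown with its own bases 2 to 8 in capitals.
miR-29c-5p, 2 bases late: aCCGAUUUcuccugguguucaga

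Late starts in the 3p arms separated the groups. Reads of miR-29b-3p that began 2 or more bases late made up 0.862%, 0.883% and 0.756% of the arm in SCI and 2.0%, 1.76% and 1.34% in control. For miR-29a-3p the share was 0.0529%, 0.0537% and 0.0467% in SCI and 0.102%, 0.0824% and 0.0719% in control. For miR-29c-3p it was 0.0734%, 0.0698% and 0.0635% in SCI and 0.132%, 0.102% and 0.129% in control. Every SCI library lay below every control library for each of the 3 arms. The counting intervals of the groups met only in miR-29c-3p, where for example SCI 1 had 0.0604% to 0.089% from 102 reads and control 2 had 0.0819% to 0.128% from 78 reads (95% Wilson).

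In absolute terms these late reads are few: those of miR-29b-3p stood at 137, 162 and 111 CPM in SCI and 462, 256 and 273 CPM in control. Most of them began 5 bases late, at 0.669%, 0.693% and 0.596% of the arm in SCI and 1.64%, 1.39% and 1.06% in control. With a full 3′ end such a read has 18 nt, the shortest length counted, so later starts are seen only on reads with extra 3′ bases.

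**Figure D4:**
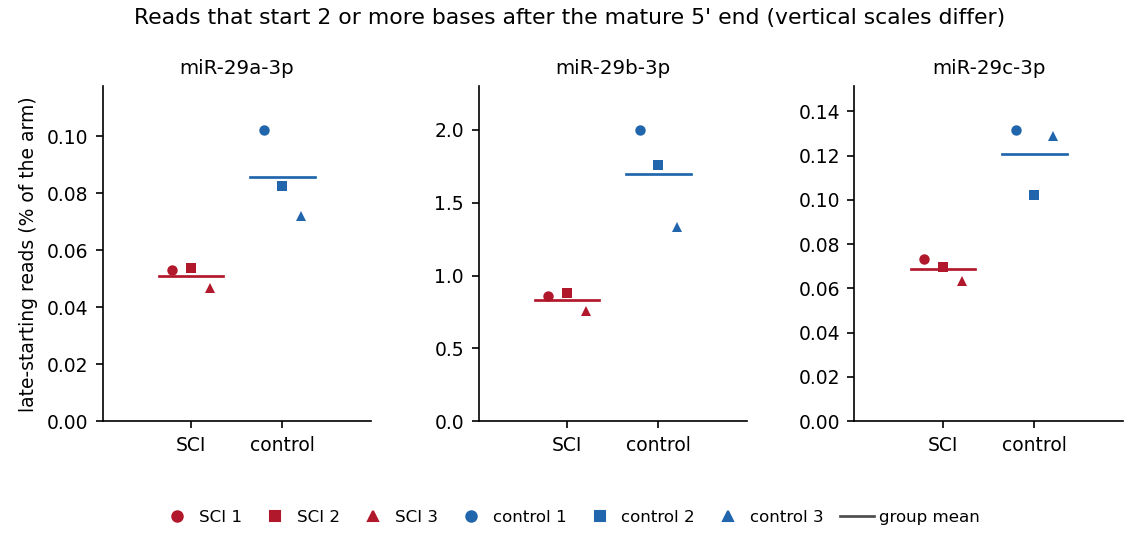
Share of the reads of miR-29a-3p, miR-29b-3p and miR-29c-3p that begin 2 or more bases after the mature start, in percent of the arm, in each of the 3 SCI and 3 control libraries, with group means as bars. All SCI points lie below all control points in each panel, and the vertical scales differ.

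The 2 5p arms with enough late reads did not share this. Late starts stood at 33.6%, 32.9% and 33.1% of miR-29c-5p in SCI and 28.5%, 31.9% and 31.9% in control, so here every SCI library lay above every control library. In miR-29a-5p the groups overlapped, with 6.30%, 7.1% and 6.21% in SCI and 4.63%, 10.1% and 7.91% in control. The lower share of late starts also held widely outside the family: among 204 arms with enough late reads, groups lay apart and lower in SCI in 45.6%, beside 3 of the 5 such family arms. The share of arms apart and higher in SCI, as miR-29c-5p was, was not computed for late starts. Over these 204 arms the median log2 deviation from the arm's mean was -0.24, -0.18 and -0.35 in SCI and 0.30, 0.33 and 0.16 in control, so the whole library moved with the group. The part of that library-wide shift in the values of miR-29 was not tested.

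When all starts other than the most abundant were set against it, a ratio that for miR-29a-3p is made mostly of reads 1 base early, the log2 ratio differed by -0.04 ± 0.08 for miR-29a-3p, -0.26 ± 0.12 for miR-29b-3p and -0.14 ± 0.08 for miR-29c-3p between SCI and control (limma, adjusted p of 0.8, 0.239 and 0.307). Of all 421 arms, 39 passed (9.26%). Of the 6 family arms tested 0 passed in limma, and 0 had an unadjusted p under 0.05. Groups lay apart and lower in SCI for 3 of the 6, miR-29b-3p, miR-29c-3p and miR-29b-2-5p, as for 30.6% of all arms. The 39 calls fell to 15 without SCI 1 and to 0 without SCI 2, SCI 3, control 1 or control 2.

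Single reads gave the only calls in the family. Of 4849 distinct reads tested with edgeR, 147 passed (3.03%), 129 of them lower in SCI (2.66%). Of the 133 miR-29 reads tested, 5 passed (3.76%), all lower in SCI, a share near that of all reads. All 5 belonged to 3p arms and began 3 to 5 bases late. They are shown with their own bases 2 to 8 in capitals, none of which matches the seed of any of 1679 mature mouse sequences.
miR-29b-3p, 5 bases late: cCAUUUGAaaucaguguu
miR-29b-3p, 4 bases late: aCCAUUUGaaaucaguguu
miR-29b-3p, 3 bases late: cACCAUUUgaaaucaguguu
miR-29a-3p, 3 bases late: cACCAUCUgaaaucgguua
miR-29c-3p, 3 bases late: cACCAUUUgaaaucgguu

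The miR-29b-3p read that began 5 bases late was the most abundant of them, at 105, 128 and 90.5 CPM in SCI and 390, 193 and 207 CPM in control, which is 1230, 2224 and 1355 counts in SCI and 6279, 1622 and 4111 counts in control. Every SCI library lay below every control library. The change was -1.29 ± 0.27 (edgeR, adjusted p = 0.0271), and it was -0.89 without control 1, where it still passed (adjusted p = 0.0128).

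The other 2 miR-29b-3p reads were rarer. The read that began 4 bases late stood at 8.13, 10.7 and 6.41 CPM in SCI and 26.3, 14.7 and 16.8 CPM in control (-1.20 ± 0.28, edgeR, adjusted p = 0.0409). The read that began 3 bases late stood at 4.11, 6.39 and 4.54 CPM in SCI and 12.4, 9.16 and 9.28 CPM in control (-1.03 ± 0.25, edgeR, adjusted p = 0.0492). Groups did not overlap for either.

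The miR-29a-3p read stood at 3.51, 3.91 and 2.07 CPM in SCI and 13.0, 8.09 and 5.90 CPM in control (-1.51 ± 0.34, edgeR, adjusted p = 0.0349). The miR-29c-3p read had only 8, 14 and 5 counts in SCI and 82, 14 and 42 counts in control, or 0.685, 0.806 and 0.334 CPM in SCI and 5.09, 1.66 and 2.12 CPM in control (-2.29 ± 0.49, edgeR, adjusted p = 0.0289). It met the filter on low counts only because of the control libraries, where it is high, so its call carries little weight. The only one of the 5 that passed without control 1 was the read 5 bases late, and without control 2 the miR-29a-3p read did not pass either (adjusted p = 0.0774). None of the 5 reads passed when SCI 1, SCI 2 or SCI 3 was left out, where their adjusted p ranged from 0.0546 to 0.298. The count over all reads fell to 67 without SCI 1, 63 without SCI 2, 0 without SCI 3 and 54 without control 2.

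Later starts went with larger changes. Among the tested reads of the 3p arms, the median log2 change was -0.17 for the 21 reads that began early, -0.08 for the 22 at the usual start, -0.30 for the 15 that began 1 base late, -0.72 for the 9 that began 2 bases late and -1.49 for the 15 that began 3 or more bases late. All 24 reads that began 2 or more bases late were below 0, and 5 of them passed (20.8%). These reads belong to the same 3p arms in the same libraries, so they are not independent observations. Rare late reads can also meet the filter on low counts through the control libraries alone, as the miR-29c-3p read did. The counts of signs and the medians are therefore descriptions. With the 5p arms included, 26 of 34 such reads were below 0. From the most abundant start on, reads of all miRNA arms had the same order: the median was 0.08 over 2584 reads at the most abundant start, -0.24 over 876 reads 1 base late, -0.35 over 310 reads 2 bases late and -0.70 over 288 reads 3 or more bases late. Among all 598 reads that began 2 or more bases late, 468 were below 0 and 61 passed as lower in SCI (10.2%). Whether the miR-29 reads differ from the other late reads was not tested.

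**Figure D5:**
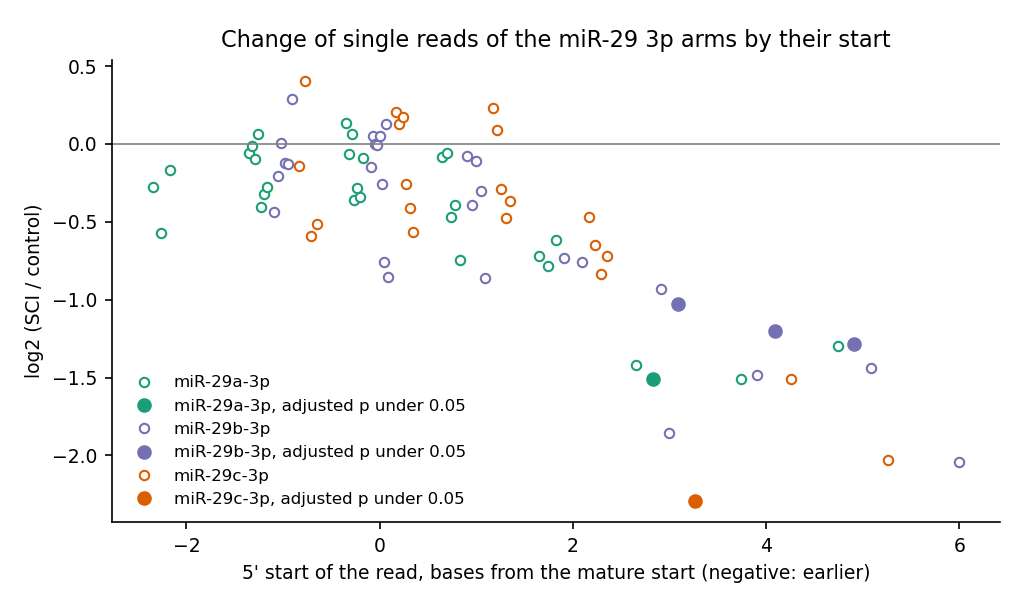
Log2 change (SCI over control) of each tested read of miR-29a-3p, miR-29b-3p and miR-29c-3p against its 5′ start, in bases from the mature start. Filled points passed at adjusted p under 0.05, a loop read that begins 18 bases early (-18) is not drawn, and all 24 reads that begin 2 or more bases late lie below 0. Reads of an arm are not independent, and rare ones can meet the filter on low counts through the control libraries alone.

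The miRNAs whose levels followed the family most closely over the 6 libraries were found by the root mean square difference of centred log2 CPM, among 231 arms with a mean of at least 100 CPM. The nearest to miR-29a-3p were miR-379-3p (0.0577), miR-132-5p (0.067) and miR-181a-1-3p (0.0786), beside a median of 0.277 over all arms compared. The nearest to miR-29b-3p were miR-181c-5p (0.108), miR-93-5p (0.12) and miR-190a-5p (0.134), with a median of 0.298. The nearest to miR-29c-3p were miR-361-5p (0.0643), miR-551b-3p (0.0652) and miR-136-3p (0.0829), with a median of 0.373. The distances within the family were 0.155 between miR-29a-3p and miR-29c-3p, 0.19 between miR-29a-3p and miR-29b-3p and 0.237 between miR-29b-3p and miR-29c-3p. All of them lay below the medians. They were larger than those of the nearest arms, which were picked as the smallest, so nothing follows from that. These distances over 6 points that share libraries are descriptions.

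Other miRNAs that climb as the cortex matures were set beside the family as a list of 12. None passed with edgeR, 4 were above 0 and 8 below, and the median log2 change was -0.15, beside -0.02 over all 690 arms. The neuronal miR-132-3p stood at 19589, 19315 and 15142 CPM in SCI and 25849, 24192 and 23269 CPM in control (-0.44 ± 0.13, edgeR, adjusted p = 0.256). miR-9-5p, which acts in neural progenitors, stood at 65633, 63620 and 61010 CPM in SCI and 85283, 82479 and 72708 CPM in control (-0.34 ± 0.10, edgeR, adjusted p = 0.256). For both, every SCI library lay below every control library, as for 11% of all arms. The neuronal miR-124-3p, whose reads from 3 hairpins were counted together, went the other way without passing, at 14896, 17521 and 16248 CPM in SCI and 9665, 12507 and 16235 CPM in control (0.34 ± 0.18, edgeR, adjusted p = 0.438), where SCI 1 lay below control 3.

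The cortex holds several cell types, and lists of miRNAs taken as their marks were summed for each library. Whether a listed miRNA is limited to its cell type was not tested. No member of these lists passed with edgeR, and none was at 0 in any library. miR-143-3p, which stands in the astrocyte and the vascular list, had the smallest p (-0.51 ± 0.11, edgeR, adjusted p = 0.156). Of the astrocyte miRNAs 5 of 6 were below 0 (median -0.46), and their sum was 12328 to 13041 CPM in SCI and 15139 to 16203 CPM in control. Of the neuronal ones 6 of 8 were below 0 (median -0.14), with a sum of 128930 to 141452 CPM in SCI and 141013 to 160272 CPM in control. The astrocyte sums did not overlap between the groups, and the neuronal sums did. Of the oligodendrocyte miRNAs 5 of 6 were below 0 (median -0.24), with 8724 to 9702 CPM in SCI and 9623 to 12809 CPM in control. Of the vascular ones 4 of 5 were below 0 (median -0.27), with 15154 to 19060 CPM in SCI and 17394 to 22905 CPM in control. Both sums overlapped. Of the microglial and leukocyte miRNAs 5 of 7 were below 0 (median -0.27), with 3711 to 5304 CPM in SCI and 3288 to 4268 CPM in control. The most abundant of them, miR-342-3p, went the other way without passing (0.79 ± 0.24, edgeR, adjusted p = 0.256). It stood at 2124, 3351 and 2814 CPM in SCI and 1139, 1482 and 2171 CPM in control, where SCI 1 lay below control 3. Of the erythrocyte ones 4 of 4 were above 0 (median 0.33), with 710 to 1764 CPM in SCI and 977 to 1188 CPM in control. All 6 choroid plexus and epithelial ones were below 0 (median -0.50), with 701 to 1274 CPM in SCI and 917 to 1302 CPM in control. The astrocyte sum was lower in all SCI libraries, and so was the sum of the list of miRNAs that climb with maturation. The latter stood at 348379 to 372910 CPM in SCI and 383447 to 407213 CPM in control. The astrocyte sum includes miR-143-3p of the vascular list, at 3003, 3243 and 2977 CPM in SCI and 4009, 4719 and 4381 CPM in control. The 3p over 5p ratio of miR-29a and the late starts of the 3p arms were also lower in all SCI libraries. The part of either sum in them was not tested.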

How the data were processed

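The authors deposited 1 table per library of distinct read sequences and raw counts, per the file headers. The submitters' processing notes name GRCm38, and the trimmer and read filters are not given in the sources used here. Reads were 17 to 34 nt long. The labels name HD adapters, whose ends hold degenerate bases, but the tables carry no molecular identifiers, so counts are reads.

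Reads of 18 to 26 nt were matched without mismatch to GENCODE M21 hairpins. Arms with the same top read or sharing at least 50% of reads were merged, and the 0.1% to 0.153% of reads that then still hit more than 1 arm were not counted. Reads that matched only after 1 to 3 terminal bases were removed counted as reads with added bases. Arms and single reads were tested with edgeR 4.0.16 (quasi-likelihood, TMM, a filterByExpr minimum of 10) under R 4.3.3, and within-arm ratios with limma 3.58.1 on log2 ratios with a pseudocount of 0.5 and at least 10 counts on average in each class. Both used all 6 libraries, no covariate and Benjamini-Hochberg adjustment over all features, with a threshold of 0.05. Both were tested on simulated data. DESeq2 1.42.0 and limma-voom were alternatives, beside other scalings, filters and pseudocounts, a replicate block and leaving out each library. The SE of an edgeR change is its size divided by the square root of F. Python 3.11.15, pandas 2.3.3, numpy 2.4.6, scipy 1.17.1 and matplotlib 3.10.9 handled tables and plots.

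All miR-29 arms are named, with the reads that passed, the most abundant reads of an arm where its ends are described, the 3 nearest arms by likeness, and list members with the smallest p. The members, lists and tests were chosen with earlier results of these data known, and the share of late starts over all arms was computed after the family's values had been seen. No library was a copy of another (chi-square per degree of freedom of 173 to 1584 for every pair). The labels say that samples were collected singly but do not tie each library to a mouse, so p-values measure the spread between these samples.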

Additional observations from a re-analysis of the deposited data

How the results depend on the processing

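The number of arms past the threshold was 0 in the reported fit, 12 with DESeq2, 30 with no filter on low counts and 0 to 7 when a library was left out. Single reads past it numbered 147, against 0 to 149 when a library was left out, and arms with a changed start ratio 39, against 0 to 45. Ratios of arms, 3′ ends and added bases gave 0 calls under every alternative run. The signs that turned belonged to values that did not pass, and the cause was not tested. When a library was left out, the log2 change ran from -0.44 to 0.10 for miR-29c-3p, from -0.14 to 0.082 for miR-29c-5p, from -0.0059 to 0.36 for miR-29a-5p and from -0.051 to 0.054 for miR-29b-2-5p. It ran from -0.25 to 0.014 for the miR-29c arm ratio, from -0.12 to 0.60 and from -0.32 to 0.76 for the trimmed ends of miR-29a-3p and miR-29c-3p, and from -0.044 to 0.078, -0.081 to 0.24 and -0.19 to 0.029 for the added bases of miR-29a-3p, miR-29b-3p and miR-29c-3p. miR-29c-5p also turned with total count scaling (0.060) and with the most abundant read alone (0.094), and the added bases of miR-29a-3p with 1 added base only (-0.0055). The balance among the 3p arms ran from -0.23 to 0.15. The labels do not say whether the replicate numbers pair samples. Same-numbered libraries had correlations of their deviations of 0.22, -0.06 and -0.09, which are too few pairs to settle it. The replicate block gave 240 calls among single reads, with all 5 miR-29 reads among them, and DESeq2 gave 212, again with all 5. The miR-29b-3p read that began 3 bases late did not pass with total count scaling (adjusted p = 0.0644), with a minimum count of 50 (adjusted p = 0.053) or without any single library, and the one 4 bases late did not pass without any single library. The late miR-29c-3p read was too rare to be tested with that minimum. Depth limits miR-29b-1-5p, with 220 to 423 reads per library, and the late miR-29c-3p read, with 5 to 82.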
